A study of Mus musculus with 8 samples.

Results

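Cells that carry CD45 and Sca1 were compared between injured skeletal muscle of marrow-transplanted mice and bone marrow. CD45 is a surface phosphatase found on blood-derived cells, and Sca1 is a mouse surface antigen used to enrich blood stem cells, which some mature cells carry as well. The members are 4 of the 8 arrays of the series, chosen by their labels: 2 from muscle after cardiotoxin injury in transplanted mice and 2 from bone marrow. The other 4 arrays come from cells with the same markers, 2 from injured muscle of untransplanted mice and 2 from uninjured muscle, and are set beside the members where stated. All mice were C57BL/6 aged 6 to 8 weeks, and cells were processed fresh. Cardiotoxin is a snake venom toxin that destroys muscle fibres and is followed by regeneration. The sources used here give neither the time after injury or transplantation nor the origin and genotype of the transplanted marrow, and they do not separate donor from host cells. The bone marrow group has neither injury nor transplantation in its labels, so tissue, injury and transplantation differ together between the groups compared. Nothing in the labels says that the 2 arrays of a group came from separate animals, so p-values measure only the spread between arrays, which may be technical.

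As background, the bone marrow holds blood stem cells, committed progenitors, neutrophil precursors and most stages of B cell development. After muscle injury, monocytes enter from the blood in response to chemokines, become macrophages, and clear dead fibres by phagocytosis. Later macrophages release growth factors and matrix proteins and are known to take part in repair. Sca1 is carried by stem cells and by many T cells, and its gene is known to respond to interferon.

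The sort was checked against its markers. Ptprc, which encodes CD45, was at 5007 and 5727 in bone marrow and 6644 and 5204 in transplanted muscle (linear intensity, scaled by the authors), and the groups overlapped. Its difference did not pass the test (log2 fold change 0.13, SE 0.21, limma adjusted p = 0.659), and its sign changed with quantile or cyclic loess normalization and without transplanted replicate 1. The gene of Sca1 is not analysed here.

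The RNA controls of the arrays followed the groups. For Gapdh, the 3' control probe set over the 5' one gave a ratio of 24.4 and 10.7 in bone marrow, against 0.882 and 0.868 in transplanted muscle. For beta-actin it was 5.75 and 5.68 against 1.19 and 1.18. The 5' Gapdh intensity was 169 and 462 in bone marrow and 9679 and 9479 in transplanted muscle, while the 3' intensity was 4117 and 4945 against 8537 and 8223. The uninjured muscle arrays were like bone marrow in this respect and the untransplanted injured arrays like the transplanted ones. Every difference from bone marrow given here moved with these ratios, and their part in each was not tested. Since both arrays of a group lie on 1 side, RNA quality and group cannot be told apart across these 4 arrays. Median intensity was 59.1 and 66.3 in bone marrow and 56.3 and 59.6 in transplanted muscle. Log2 intensities correlated at 0.948 between the bone marrow arrays, 0.950 between the transplanted arrays and 0.804 to 0.808 between the groups, across probe sets, which are not independent.

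**Figure D1:**
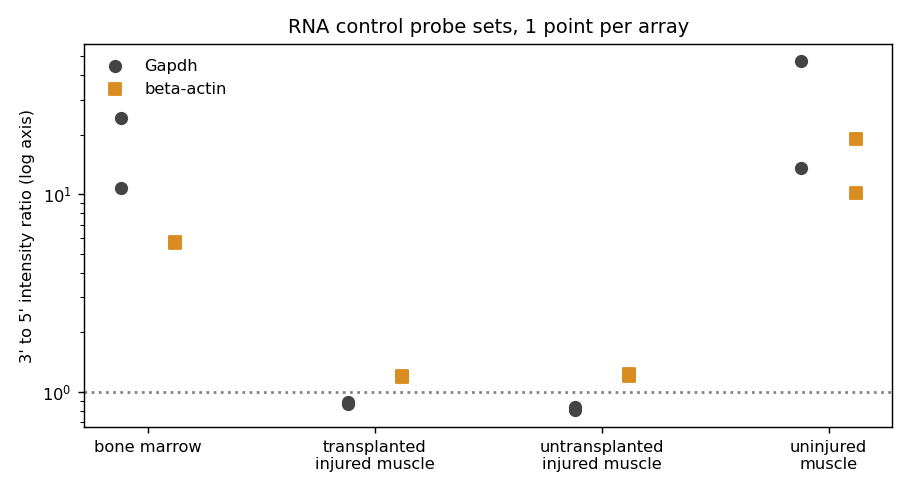
Ratio of 3' to 5' intensity of the Gapdh (circles) and beta-actin (squares) control probe sets on a log axis, 1 point per array, for the 4 groups, with a dotted line at 1. The 2 transplanted arrays sit near 1 for both controls, and the bone marrow arrays sit at 10.7 and 24.4 for Gapdh and 5.68 and 5.75 for beta-actin.

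The comparison covered much of the array. Of 16289 tested probe sets, 5297 passed the threshold (32.5%), 2465 of them higher in transplanted injured muscle (15.1%) and 2832 lower (17.4%). The threshold was an adjusted p of 0.05 in limma with Benjamini-Hochberg adjustment, and "rose" and "fell" mean higher and lower in transplanted injured muscle than in bone marrow. On 72.9% of probe sets the 2 groups of arrays did not overlap, so separation alone distinguishes little here. With bone marrow replicate 1 or 2 left out, 1790 and 1884 probe sets rose and 1537 and 1700 fell. With transplanted replicate 1 or 2 left out, 1260 and 1257 rose and 1332 and 1406 fell. Counted with 1 probe set per gene, the one with the highest mean over the 8 arrays, 2998 of 9513 genes passed (31.5%), with 1143 rises (12%) and 1855 falls (19.5%). The median log2 fold change of all tested probe sets was -0.19.

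Agreement between the probe sets of a gene was examined next. Probe positions were not available, so whether the probe sets of a gene share sequence was not checked. Of the genes tested, 3544 had 2 or more tested probe sets, and in 2070 of these at least 1 was called. All probe sets rose for 222 genes (6.26%) and all fell for 174 (4.91%), while 162 genes (4.57%) had probe sets called in opposite directions. The probe sets of a gene spanned a median of 1.40 log2 units against bone marrow, compared with 0.40 between the injured groups. Where the brightest probe set of a gene rose, 80.1% of its 803 other probe sets had the same sign and 31 were called lower. Where the brightest fell, 67.0% of 1269 others were also lower and 99 were called higher. Leaving out a bone marrow array gave 151 and 139 genes with all probe sets higher and 77 and 94 with all lower, for replicate 1 and 2. Leaving out a transplanted array gave 96 both times for higher, and 74 and 76 for lower.

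**Figure D2:**
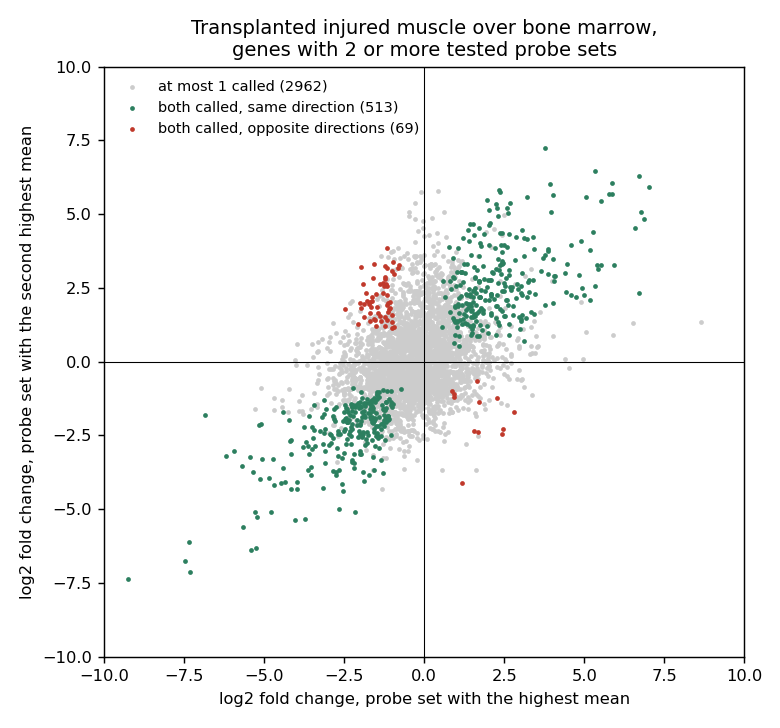
Log2 fold change of transplanted injured muscle over bone marrow for the brightest (x axis) and second brightest (y axis) probe set of each of the 3544 genes with 2 or more tested, 1 point per gene. Green points are the 513 genes with both called the same way, and red points are the 69 called in opposite ways, of which 57 lie in the upper left, where the brightest probe set fell and the second rose.

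Rrm1, the large subunit of ribonucleotide reductase, shows how far this can go. Its brighter probe set was at 1533 and 1299.5 in bone marrow and 283 and 221 in transplanted muscle. The other was at 81.6 and 99.2 in bone marrow and 327 and 319 in transplanted muscle. The first fell (log2 fold change -2.48) and the second rose (1.80). Tlr7, an RNA-sensing receptor, had 1 probe set that rose and 2 that fell (log2 fold changes -1.93 to 1.71). Lamp2, a lysosomal membrane protein, had 3 that rose and 1 that fell (-1.11 to 2.92). No direction is given here for these 3 genes, which were named after their values were seen, apart from their place in the list counts, where the brightest probe set stands for a gene.

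Among genes with several probe sets, the 12 largest rises that passed on every probe set were C3ar1, Ccl9, Thbs1, Ms4a6d, Cxcl16, Msr1, Rab7b, Itgb5, C1qb, Fabp5, Lpl and Il1rn. They are ranked by the median over a gene's probe sets of the log2 fold change with intensities under 38.4 set to it, 38.4 being the 40th percentile of all values, and this ran from 6.51 for C3ar1 to 4.54 for Il1rn. A fold is written "at least" where an array of the lower group was under 38.4 and is then computed against that value. C3ar1, the receptor for the complement fragment C3a, was at 84.1 and 46.9 in bone marrow and 7740.3 and 6488 in transplanted muscle, 106-fold higher (log2 fold change 6.73, SE 0.31, adjusted p = 2.98e-05). Its 2 probe sets gave log2 fold changes of 6.31 to 6.73. For Il1rn, the secreted antagonist of the interleukin 1 receptor, the bone marrow arrays gave 6.9 and 39.7 and the transplanted arrays 2127 and 2017 (at least 48.2-fold higher; log2 fold change 6.57, SE 0.71, adjusted p = 0.000534). All 3 probe sets of Il1rn rose, by 2.52 to 6.57 on the log2 scale. Intensities of Cxcl16, a membrane-bound chemokine and scavenger receptor, were 52.6 and 47.9 in bone marrow against 2229 and 2180.4 after injury and transplantation (40.7-fold higher; log2 fold change 5.35, SE 0.38, adjusted p = 0.000106). The rule for these genes required that the groups do not overlap, so their separation is not a further result. Thbs1, the matrix glycoprotein thrombospondin 1, was at 112 and 22.4 in bone marrow and 2427 and 3747 in transplanted muscle, at least 43-fold higher (log2 fold change 5.77, SE 0.74, adjusted p = 0.00114). For Itgb5, the integrin beta 5 chain, the bone marrow arrays gave 77.9 and 97.8 and the transplanted arrays 2908 and 2842 (31.5-fold higher; log2 fold change 4.98, SE 0.79, adjusted p = 0.00273). Rab7b, a small GTPase of late endosomes and lysosomes, rose on both probe sets (log2 fold changes 5.86 to 6.07), and so did Ms4a6d, a membrane-spanning protein of myeloid cells (5.44 to 5.53).

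The 12 largest falls by the same rule were Igha, Slc2a3, Ms4a1, Dntt, Klk1, Ccr9, Mmp9, Satb1, Scd1, Myb, Ldhb and Ptprf, with medians from -7.16 for Igha to -3.59 for Ptprf on that scale. Slc2a3, a glucose transporter, was at 2730.2 and 3207 in bone marrow and 58.6 and 95.8 in transplanted muscle, 37.5-fold lower (log2 fold change -5.23, SE 0.34, adjusted p = 7.67e-05). Both of its probe sets fell, by log2 fold changes of -5.26 to -5.23. For Scd1, a fatty acid desaturase, the bone marrow arrays gave 3223 and 1535 and the transplanted arrays 48.3 and 53.1 (40.8-fold lower; log2 fold change -5.35, SE 0.40, adjusted p = 0.000125). Intensities of Ldhb, the B subunit of lactate dehydrogenase, were 831 and 834 in bone marrow against 71.4 and 112 after injury and transplantation (8.96-fold lower; log2 fold change -3.16, SE 0.40, adjusted p = 0.00101). Ldhb had 4 probe sets and all fell (-4.4 to -3.16), which makes it the gene of these 12 with the most probe sets in accord. Ptprf, a receptor-type tyrosine phosphatase, was at 553 and 462 in bone marrow and 23.8 and 2.11 in transplanted muscle, at least 12-fold lower (log2 fold change -5.29, SE 0.72, adjusted p = 0.00146). Klk1, a tissue kallikrein, fell on all 3 probe sets (-7.33 to -5.57); its family has near-identical copies in the mouse, so the probe sets may read more than 1 of them. Among genes with 1 tested probe set the 8 largest rises were Ccl7, Gpnmb, Ccl8, Ccl12, Ccl2, Folr2, Rnase4 and C1qa, and the 8 largest falls were Ngp, Camp, Ltf, Mpo, Jchain, Lcn2, D13Ertd608e and Igkv8-30. These have no second probe set to compare, and most are described with their lists. Rnase4, a secreted ribonuclease, was at 70.9 and 57.1 in bone marrow and 6419 and 5476 in transplanted muscle, 87.7-fold higher.

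**Figure D3:**
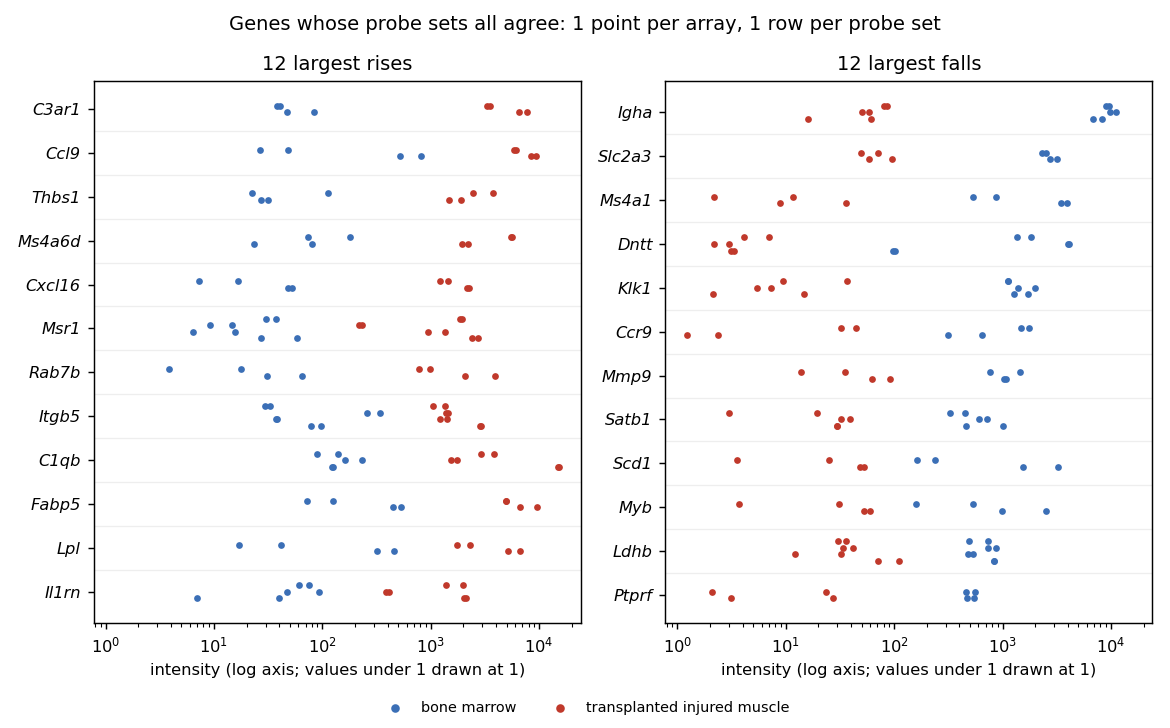
Intensity on a log axis of the 12 largest rises (left) and 12 largest falls (right) among genes whose probe sets all agree. Each point is 1 array and each line of points within a gene is 1 probe set, with bone marrow in blue and transplanted injured muscle in red. The colours stay apart on every probe set, as the rule for choosing these genes required.

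Chemokines and cytokines were among the largest rises. 18 of 24 tested members of that list rose and 1 fell, beside 12% and 19.5% of all genes. The median log2 fold change was 2.93 against -0.32 over all genes. Ccl2, Ccl7, Ccl12 and Ccl8 are ligands of monocyte receptors whose genes all lie on chromosome 11. Ccl2, the main ligand of Ccr2, was at 88.1 and 101 in bone marrow and 9842 and 9643 in transplanted muscle, 99-fold higher (log2 fold change 6.63, SE 0.22, adjusted p = 1.22e-05). For Ccl7, a second Ccr2 ligand, the bone marrow arrays gave 8.09 and 21.7 and the transplanted arrays 9724 and 10805 (at least 242-fold higher; log2 fold change 9.18, SE 0.39, adjusted p = 2.19e-05). Intensities of Ccl12, another ligand of Ccr2 in the mouse, were 1.07 and 1.7 in bone marrow against 4079.8 and 4556 after injury and transplantation (at least 102-fold higher; log2 fold change 9.64, SE 0.34, adjusted p = 1.22e-05). On bone marrow arrays Ccl7 and Ccl12 were under 38.4, so their folds are lower bounds. Ccl8, which attracts monocytes and lymphocytes, was at 70.4 and 76.4 in bone marrow and 8209.9 and 9739 in transplanted muscle, 116-fold higher (log2 fold change 6.85, SE 0.33, adjusted p = 2.99e-05). For Ccl9, a chemokine of myeloid cells, the bone marrow arrays gave 809 and 525 and the transplanted arrays 9414 and 8430.4 (13.6-fold higher; log2 fold change 3.77, SE 0.24, adjusted p = 7.32e-05). Intensities of Cxcl1, which attracts neutrophils, were 10.9 and 12.1 in bone marrow against 917 and 1006 after injury and transplantation (at least 22.8-fold higher; log2 fold change 5.96, SE 0.28, adjusted p = 2.98e-05). The member that fell was Ccl5. Ccl5, a chemokine made by activated T and natural killer cells, was at 2312 and 3794 in bone marrow and 365 and 370.1 in transplanted muscle, 7.98-fold lower (log2 fold change -3.0, SE 0.34, adjusted p = 0.000649). Further members, named with their values known, were Il1b, an inflammatory cytokine (3.52), Il18bp, which binds interleukin 18 (5.12), and Ptgs2, which makes prostaglandins (3.86), all of which rose. Tnf did not pass (1.36, adjusted p = 0.143).

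The receptors for these signals were found in the list of homing and adhesion genes. Of its 27 tested members 13 rose and 6 fell (median log2 fold change 1.0), beside 12% and 19.5% of all genes. Ccr2, the receptor through which monocytes leave the marrow and enter tissue, was at 64.2 and 51.8 in bone marrow and 2368 and 3027 in transplanted muscle, 43.5-fold higher (log2 fold change 5.44, SE 0.42, adjusted p = 0.000138). For Itgam, the alpha chain of the integrin CD11b, the bone marrow arrays gave 28.6 and 24.7 and the transplanted arrays 1149 and 1164 (at least 27.4-fold higher; log2 fold change 5.24, SE 0.43, adjusted p = 0.00018). Intensities of Ccr9, a homing receptor of gut-bound lymphocytes, were 1489 and 1737 in bone marrow against 32.5 and 44.9 after injury and transplantation (at least 35.4-fold lower; log2 fold change -5.25, SE 0.33, adjusted p = 7.38e-05). Ccr2 was called on 2 of its 3 probe sets. Rgs1, a brake on chemokine receptor signalling, was at 1378 and 1335 in bone marrow and 9589 and 8678 in transplanted muscle, 6.71-fold higher (log2 fold change 2.75, SE 0.19, adjusted p = 9.36e-05). Fewer members of this list rose and fewer fell without any 1 of the 4 arrays. The median of the list was then 1.15 and 0.68 without bone marrow replicate 1 and 2, and 1.01 and 0.97 without transplanted replicate 1 and 2.

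Nearly all monocyte and macrophage markers rose: 25 of 26 tested members, with 0 falling, beside 12% and 19.5% of all genes. Their median log2 fold change was 3.52. Lgals3, a sugar-binding protein abundant in macrophages, was at 785 and 1262 in bone marrow and 24715 and 20633 in transplanted muscle, 22.6-fold higher (log2 fold change 4.5, SE 0.29, adjusted p = 7.9e-05). For Ms4a7, a membrane protein of macrophages, the bone marrow arrays gave 153 and 149.8 and the transplanted arrays 8812 and 7470.1 (52.2-fold higher; log2 fold change 5.71, SE 0.21, adjusted p = 1.52e-05). Intensities of Fcgr1, the high-affinity receptor for immunoglobulin G, were 124 and 81.6 in bone marrow against 5591 and 6124 after injury and transplantation (55.9-fold higher; log2 fold change 5.81, SE 0.37, adjusted p = 7.38e-05). Fcer1g, the signalling chain shared by Fc receptors, was at 631 and 657 in bone marrow and 10119.7 and 9827 in transplanted muscle, 15.4-fold higher (log2 fold change 3.94, SE 0.22, adjusted p = 4.29e-05). For all 4, both transplanted arrays lay above both bone marrow arrays, which their choice by the smallest p in this comparison favours. The list summed to 24644 and 21897 in bone marrow and 157743 and 144146 in transplanted muscle. More or fewer cells of a type cannot be told apart from more or less RNA per cell in such bulk samples. Further members, named with their values known, were Adgre1, which encodes the F4/80 antigen (4.53), and Csf1r, the receptor for macrophage colony-stimulating factor (2.32). The member that did not pass was Maf, a transcription factor (1.36).

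Receptors that sense microbes and antibodies moved the same way. Of 22 tested, 18 rose and 0 fell (median 2.09), beside 12% and 19.5% of all genes. This list shares members with the one before. Cd14, the co-receptor for lipopolysaccharide, was at 226 and 288 in bone marrow and 8566 and 8800.4 in transplanted muscle, 33.5-fold higher (log2 fold change 5.07, SE 0.35, adjusted p = 9.36e-05). For Msr1, the class A scavenger receptor, the bone marrow arrays gave 27.1 and 57.7 and the transplanted arrays 2736 and 2391 (at least 50.1-fold higher; log2 fold change 5.87, SE 0.40, adjusted p = 9.36e-05). Msr1 rose on all 4 of its probe sets (3.87 to 6.31). Among complement genes 11 of 13 rose and 0 fell (median 4.0), beside the same shares of all genes. Fewer complement genes rose without any 1 of the 4 arrays. Their median was then 4.3 and 4.0 without bone marrow replicate 1 and 2, and 3.9 and 4.1 without transplanted replicate 1 and 2. Intensities of C1qb, a chain of the first complement component, were 126 and 123 in bone marrow against 14810.0 and 15093 after injury and transplantation (116-fold higher; log2 fold change 6.86, SE 0.83, adjusted p = 0.000868). C1qc, a second chain of that component, was at 128 and 166 in bone marrow and 6285 and 5621 in transplanted muscle, 39.7-fold higher (log2 fold change 5.31, SE 0.51, adjusted p = 0.000342). C1qa, its remaining chain, was at 69.9 and 209 in bone marrow and 8630.2 and 9154 in transplanted muscle (log2 fold change 6.15, SE 1.70, adjusted p = 0.0262), and its call was lost without any 1 of the 4 arrays. For Cfb, factor B of the alternative pathway, the bone marrow arrays gave 21.4 and 6.16 and the transplanted arrays 2421 and 2254 (at least 55.2-fold higher; log2 fold change 7.18, SE 0.53, adjusted p = 0.000114). The 2 members that did not pass were C2 (0.85) and Itgax (-0.56), the latter a chain of a complement receptor.

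Genes of lipid uptake and of the clearance of dead cells rose in 14 of 18 cases and fell in 1 (median 3.54). Over all genes 12% rose and 19.5% fell. Gpnmb, a membrane glycoprotein of phagocytes, was at 34.3 and 25.5 in bone marrow and 6903 and 7366 in transplanted muscle, at least 168-fold higher (log2 fold change 7.73, SE 0.60, adjusted p = 0.000138). For Lpl, lipoprotein lipase, the bone marrow arrays gave 456 and 321 and the transplanted arrays 6665 and 5194 (15.2-fold higher; log2 fold change 3.93, SE 0.29, adjusted p = 0.000113). Intensities of Fabp5, a fatty acid carrier, were 448 and 534 in bone marrow against 9538 and 6602 after injury and transplantation (16.1-fold higher; log2 fold change 4.01, SE 0.25, adjusted p = 7.08e-05). Both probe sets of Lpl and of Fabp5 were called. Mertk, a receptor for apoptotic cells, was at 36.5 and 27.6 in bone marrow and 836 and 883 in transplanted muscle, at least 20.4-fold higher (log2 fold change 4.59, SE 0.30, adjusted p = 8.16e-05). The member that fell was Mfge8 (-1.4), a bridging protein for apoptotic cells, whose call was lost without either bone marrow array or transplanted replicate 1. Trem2, a lipid-sensing receptor of macrophages named with its value known, was at 3.49 and 4.08 in bone marrow and 3002 and 3247 in transplanted muscle (at least 73.7-fold higher; adjusted p = 0.000923), and its other probe set did not pass (log2 fold change 1.35, adjusted p = 0.071). Apoe, an apolipoprotein with a large fold, did not pass (log2 fold change 3.94, SE 1.46).

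Of 19 markers of alternatively activated and tissue-resident macrophages 15 rose and 0 fell (median 3.18), beside 12% and 19.5% of all genes. Folr2, a folate receptor of resident macrophages, was at 34.1 and 38 in bone marrow and 3983 and 3980.2 in transplanted muscle, at least 94-fold higher (log2 fold change 6.64, SE 0.32, adjusted p = 2.99e-05). For Mrc1, the mannose receptor, the bone marrow arrays gave 196 and 112 and the transplanted arrays 3476 and 3805 (23.9-fold higher; log2 fold change 4.58, SE 0.28, adjusted p = 7.08e-05). Intensities of Tgfbi, a matrix protein induced by TGF-beta, were 622 and 822 in bone marrow against 11031 and 11200.5 after injury and transplantation (15.5-fold higher; log2 fold change 3.95, SE 0.20, adjusted p = 2.99e-05). All 4 probe sets of Tgfbi rose (2.71 to 5.09). Arg1, the arginase of alternatively activated macrophages, also rose (5.83), whereas Retnla, another gene of that state, was near 0 (-0.11, adjusted p = 0.778); both were named with their values known.

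Of the transcription factors of myeloid and lymphoid cells 10 of 25 rose and 5 fell, beside 12% and 19.5% of all genes. Mitf, a factor for lysosomal and osteoclast genes, was at 62 and 51.5 in bone marrow and 988 and 787 in transplanted muscle, 14.6-fold higher (log2 fold change 3.87, SE 0.30, adjusted p = 0.000139). For Pparg, a lipid-sensing nuclear receptor, the bone marrow arrays gave 19.5 and 2.75 and the transplanted arrays 399 and 349 (at least 8.89-fold higher; log2 fold change 4.9, SE 0.61, adjusted p = 0.000973). Intensities of Satb1, a chromatin organiser of lymphoid cells, were 462 and 1019 in bone marrow against 29.9 and 29.6 after injury and transplantation (at least 16.3-fold lower; log2 fold change -4.35, SE 0.44, adjusted p = 0.000413). Nfil3, a basic leucine zipper factor, was at 42.1 and 84.3 in bone marrow and 940.0 and 812 in transplanted muscle, 13.8-fold higher (log2 fold change 3.78, SE 0.43, adjusted p = 0.000662). Satb1 fell on all 3 probe sets (-4.92 to -4.06). Fewer of these factors rose and fewer fell without any 1 of the 4 arrays. The median, 1.60, was then 1.29 and 1.46 without bone marrow replicate 1 and 2, and 1.40 and 1.61 without transplanted replicate 1 and 2.

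Lysosomal genes rose in 14 of 24 cases and fell in 0 (median 1.49); without bone marrow replicate 2 or either transplanted array the rises numbered 9. Atp6v1a, a subunit of the proton pump, was at 129.7 and 231 in bone marrow and 3784 and 3918 in transplanted muscle, 21.7-fold higher (log2 fold change 4.44, SE 0.32, adjusted p = 0.000105). For Ctsz, cathepsin Z, the bone marrow arrays gave 1908 and 1163 and the transplanted arrays 8504 and 9054 (5.88-fold higher; log2 fold change 2.56, SE 0.26, adjusted p = 0.000427). Intensities of Ctsb, cathepsin B, were 4445 and 4472 in bone marrow against 19966 and 17295 after injury and transplantation (4.16-fold higher; log2 fold change 2.06, SE 0.22, adjusted p = 0.000507). Every probe set of these 3 rose. The CLEAR E-box TCACGTGA is the element through which the factor TFEB is known to act on lysosomal genes. It was searched on both strands in windows of the 250 bases before each start site (RefSeq, GRCm38.p6), and a gene may have more than 1 window. It was present in 0.785% of all 32851 windows and in 3 of the 20 tested lysosomal members with a window. Of the 12 called members with a window 1 held it, and the other 2 matches, Ctsa and Ctsd, were not called. A member counted if any of its windows held a match, so the share of members and the share of windows are unlike measures. The stretch around the match in Atp6v1a, the called member, follows with the match in capitals.
Atp6v1a, chr16:44139359-44139416, minus strand: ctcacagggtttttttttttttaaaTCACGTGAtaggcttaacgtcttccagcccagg

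Of 19 genes of iron and heme handling 9 rose and 4 fell, beside 12% and 19.5% of all genes. Slc11a1, an iron and manganese pump of phagosomes, was at 117 and 128 in bone marrow and 2266 and 2512 in transplanted muscle, 18.9-fold higher (log2 fold change 4.24, SE 0.46, adjusted p = 0.000534). For Fth1, the heavy chain of the iron store ferritin, the bone marrow arrays gave 5013 and 4770.5 and the transplanted arrays 26293 and 22773 (5.0-fold higher; log2 fold change 2.32, SE 0.25, adjusted p = 0.000554). Intensities of Tfrc, the transferrin receptor for iron uptake, were 1796 and 1781 in bone marrow against 293 and 356 after injury and transplantation (5.48-fold lower; log2 fold change -2.45, SE 0.27, adjusted p = 0.000595). Tfrc was called on 1 of its 2 probe sets. The heme-degrading enzyme Hmox1 rose (4.26) and the iron exporter Slc40a1 fell (-2.21); these were named with their values known, and 1 of the 2 probe sets of Slc40a1 was called. Fewer iron and heme genes rose and fewer fell without any 1 of the 4 arrays. The median, 0.94, was then 1.68 and 0.91 without bone marrow replicate 1 and 2, and 0.83 and 1.73 without transplanted replicate 1 and 2.

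Interferon-response genes rose in 19 of 31 cases and fell in 1 (median 1.94), beside 12% and 19.5% of all genes. Zbp1, a sensor of Z-form nucleic acids, was at 56 and 55.6 in bone marrow and 2020.3 and 2278 in transplanted muscle, 35.9-fold higher (log2 fold change 5.17, SE 0.29, adjusted p = 4.62e-05). For Ifit3, an antiviral protein with tetratricopeptide repeats, the bone marrow arrays gave 356 and 354 and the transplanted arrays 3246 and 3018 (8.73-fold higher; log2 fold change 3.13, SE 0.25, adjusted p = 0.000158). Intensities of Cxcl10, a chemokine for activated T cells, were 69.2 and 135 in bone marrow against 1503 and 1499.6 after injury and transplantation (14.9-fold higher; log2 fold change 3.9, SE 0.34, adjusted p = 0.00023). Rsad2, the antiviral enzyme viperin, was at 1165 and 1211 in bone marrow and 8456 and 6723 in transplanted muscle, 6.33-fold higher (log2 fold change 2.66, SE 0.28, adjusted p = 0.000464). Both probe sets of Zbp1 and all 3 of Rsad2 rose. The member that fell was Irf1 (-1.36), a transcription factor, and the proteasome subunits Psmb8 (-0.13) and Psmb9 (-0.13) and the peptide transporter Tap1 (0.38) did not pass.

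The interferon-stimulated response element, written GAAA, any 2 bases, GAAA, was searched on both strands in the same windows. It was present in 2.98% of all 32851 windows and in 11 of the 25 tested interferon members with a window. Here too a member counted if any of its windows matched, which is unlike the share of single windows. Of the 16 members with a window that were called, 7 held it, beside 44% of all 25, so it was no more frequent among called members. The other 4 that held it, namely Bst2, Gbp3, Igtp and Stat2, were not called. Matches are descriptions of letters and not of binding. The stretches below show the match of each called member in capitals on the strand of the gene, and where the reverse complement matched, the capitals read TTTC first. Overlapping matches run together.
Cxcl10, chr5:92349068-92349127, minus strand: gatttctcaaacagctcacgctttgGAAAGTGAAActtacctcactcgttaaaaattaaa
Gbp2, chr3:142620579-142620638, plus strand: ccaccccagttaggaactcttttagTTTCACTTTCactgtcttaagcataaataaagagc
Ifit1, chr19:34640760-34640819, plus strand: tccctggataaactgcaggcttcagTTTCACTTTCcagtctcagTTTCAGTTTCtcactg
Ifit3, chr19:34583348-34583407, plus strand: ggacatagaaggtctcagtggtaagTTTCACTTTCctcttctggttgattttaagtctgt
Irgm1, chr11:48871421-48871475, minus strand: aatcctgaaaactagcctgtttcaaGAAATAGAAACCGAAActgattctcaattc
Oas1a, chr5:120907526-120907570, minus strand: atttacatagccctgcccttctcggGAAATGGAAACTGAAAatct
Rsad2, chr12:26456538-26456597, minus strand: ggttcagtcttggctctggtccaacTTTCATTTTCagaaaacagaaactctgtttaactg

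Irgm1, an immunity-related GTPase, rose by 2.23 on the log2 scale. Gbp2, a guanylate-binding protein, rose by 2.01 on its brighter probe set and stood at -0.0062 on the other (adjusted p = 0.994). Ifit1 rose by 2.49 and Oas1a, an RNA-activated oligoadenylate synthetase, by 2.67. Of those not called, Igtp was at -0.22 and Gbp3 at -0.16, while Stat2, a transcription factor of this pathway, was at 0.32 on its brighter probe set and called higher on the other (2.73). The division into called and not called members thus depends on the probe set for Gbp2 and Stat2.

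Matrix-remodelling genes rose in 15 of 24 cases and fell in 0 (median 3.04), beside 12% and 19.5% of all genes. Mmp12, macrophage elastase, was at 2.7 and 3.3 in bone marrow and 1984 and 1575 in transplanted muscle, at least 41.8-fold higher (log2 fold change 7.98, SE 0.33, adjusted p = 2.19e-05). For Tgm2, a protein cross-linking transglutaminase, the bone marrow arrays gave 374 and 356 and the transplanted arrays 3553 and 2840.1 (8.62-fold higher; log2 fold change 3.11, SE 0.23, adjusted p = 0.000126). Intensities of Timp2, an inhibitor of metalloproteinases, were 397 and 622 in bone marrow against 4619 and 5035 after injury and transplantation (9.64-fold higher; log2 fold change 3.27, SE 0.26, adjusted p = 0.000146). Tgm2 and Timp2 had 5 probe sets each, and all rose (3.11 to 5.57 and 1.33 to 4.62).

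Fibroblast and mesenchymal markers also moved: 17 of 24 rose and 1 fell, beside 12% and 19.5% of all genes. The median log2 fold change was 3.08. With values under 38.4 set to it the median was 1.82, because 14 members were under that value on both bone marrow arrays. Col3a1, a chain-forming fibrillar collagen, was at 24.6 and 10 in bone marrow and 1716 and 1939 in transplanted muscle, at least 43.1-fold higher (log2 fold change 6.51, SE 0.70, adjusted p = 0.000536). The other probe set of Col3a1 did not pass (log2 fold change 1.3, adjusted p = 0.3). For Sparc, a collagen-binding matrix protein, the bone marrow arrays gave 4.88 and 10.5 and the transplanted arrays 691 and 687 (at least 16.3-fold higher; log2 fold change 5.93, SE 0.38, adjusted p = 7.57e-05). Intensities of Bgn, the proteoglycan biglycan, were 9.77 and 23.8 in bone marrow against 629 and 347 after injury and transplantation (at least 11.1-fold higher; log2 fold change 4.59, SE 0.44, adjusted p = 0.000334). Summed intensity of the list was 2945 and 3265 in bone marrow, 11473 and 9946 in transplanted muscle and 44449.7 and 44245 in untransplanted injured muscle. Markers of a non-blood cell type thus moved with the comparison, and their part in the matrix results was not tested. Pdgfra, a growth factor receptor of mesenchymal cells, rose (3.01) and Pdgfrb, its relative on mural cells, did not pass (-1.37). The member that fell was Thy1 (-3.16), which T cells carry too.

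Endothelial and muscle fibre genes were called at no higher a share than all genes, 12% of which were higher and 19.5% lower. Of 19 endothelial markers 2 rose and 2 fell (median -0.3), with summed intensities of 1913 and 2093 in bone marrow and 3979.6 and 3923 in transplanted muscle. Leaving out bone marrow replicate 2 gave 4 rises, and leaving out any 1 member array gave 1 fall. Cd93, a C-type lectin of endothelium and myeloid cells, was at 662 and 472 in bone marrow and 2678 and 2663 in transplanted muscle, 4.75-fold higher (log2 fold change 2.25, SE 0.26, adjusted p = 0.000667). For Egfl7, a factor secreted by endothelium, the bone marrow arrays gave 235 and 381 and the transplanted arrays 19.4 and 7.99 (at least 7.16-fold lower; log2 fold change -4.18, SE 0.53, adjusted p = 0.00111). Egfl7 was called on 3 of 4 probe sets (-4.18 to 1.07). Cdh5, the cadherin of endothelial junctions, was at 143 and 107 in bone marrow and 46.2 and 54.5 in transplanted muscle and fell (-1.24), and Fabp4, a fatty acid carrier also of macrophages, rose on 1 of 4 probe sets (3.43). Of 22 muscle fibre genes 2 rose and 4 fell, with summed intensities of 4138 and 3467 in bone marrow and 1198 and 1083 in transplanted muscle. Intensities of Pgam2, the muscle phosphoglycerate mutase, were 353 and 279 in bone marrow against 2.52 and 3.44 after injury and transplantation (at least 7.49-fold lower; log2 fold change -5.51, SE 0.65, adjusted p = 0.000774). Tpm1, a tropomyosin found in many cell types, was at 25.1 and 40.9 in bone marrow and 311 and 299 in transplanted muscle, at least 7.08-fold higher (log2 fold change 3.1, SE 0.33, adjusted p = 0.000501). Tpm1 was called on 2 of 3 probe sets. The fast-fibre myosin Myh4 did not pass (0.23), and the muscle cytochrome oxidase subunit Cox6a2 (-4.55) and the calcium pump Atp2a1 (-2.55) fell. With replicate 1 of bone marrow or either transplanted array left out, 1 fibre gene rose. Among 9 satellite cell genes 3 fell and 0 rose: Ncam1, a neural adhesion molecule (-4.0), Vcam1, a vascular adhesion molecule (-2.14, 1 of 3 probe sets), and the Notch receptor Notch3 (-1.57). With 1 transplanted array left out, either one, 1 fell. Myog, a factor of muscle differentiation, did not pass (0.68).

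Stem and progenitor genes fell in 15 of 20 cases and rose in 0, beside 19.5% and 12% of all genes. The median log2 fold change was -3.81 (-2.4 with values under 38.4 set to it). Cd34, a sialomucin of progenitors, was at 841 and 533 in bone marrow and 42.3 and 45.6 in transplanted muscle, 14.1-fold lower (log2 fold change -3.81, SE 0.35, adjusted p = 0.000293). For Flt3, the receptor of early lymphoid and myeloid progenitors, the bone marrow arrays gave 854 and 905 and the transplanted arrays 64.4 and 33.7 (at least 16.4-fold lower; log2 fold change -4.12, SE 0.40, adjusted p = 0.00035). Intensities of Gata2, a transcription factor of stem cells and mast cells, were 444 and 469 in bone marrow against 31.9 and 25.8 after injury and transplantation (at least 10.9-fold lower; log2 fold change -3.81, SE 0.33, adjusted p = 0.000204). Gfi1, a repressor of granulocyte and stem cell programmes, was at 209 and 256 in bone marrow and 1.51 and 5.82 in transplanted muscle, at least 5.55-fold lower (log2 fold change -4.99, SE 0.47, adjusted p = 0.000321). Transplanted intensities of these 4 were low on both arrays. The other probe set of Gata2 did not pass (log2 fold change -1.12, adjusted p = 0.22). For Myb, a transcription factor of progenitors, the bone marrow arrays gave 2498 and 995 and the transplanted arrays 60.5 and 52.6 (26.2-fold lower; log2 fold change -4.71, SE 0.55, adjusted p = 0.000722). Kit, the stem cell factor receptor (-4.53), Meis1 (-5.58) and Hoxa9 (-6.86), homeobox factors of stem cells, also fell and were named with their values known. Those that did not pass were Lmo2, Lyl1, Procr, Tek and Mecom. Summed intensity was 10751 and 8069 in bone marrow and 1969 and 1826 in transplanted muscle.

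Genes of neutrophil granules fell in 12 of 17 cases and rose in 1 (median -4.62), beside 19.5% and 12% of all genes. Ngp, neutrophilic granule protein, was at 8722 and 9434 in bone marrow and 36.3 and 21.2 in transplanted muscle, at least 214-fold lower (log2 fold change -8.15, SE 0.35, adjusted p = 2.19e-05). For Camp, the antimicrobial cathelicidin, the bone marrow arrays gave 4961 and 8134 and the transplanted arrays 13.3 and 35.4 (at least 149.9-fold lower; log2 fold change -7.93, SE 0.66, adjusted p = 0.000182). Intensities of Ltf, lactoferrin, were 4893 and 6717 in bone marrow against 17.1 and 27.4 after injury and transplantation (at least 135-fold lower; log2 fold change -7.8, SE 0.68, adjusted p = 0.000223). These mark the secondary granules made by late precursors. Mpo, myeloperoxidase of the primary granules, was at 2849.8 and 5243 in bone marrow and 34.3 and 40.5 in transplanted muscle, at least 89.1-fold lower (log2 fold change -6.55, SE 0.54, adjusted p = 0.000185). For Lcn2, the iron-binding lipocalin of granules, the bone marrow arrays gave 5581 and 4366 and the transplanted arrays 51.2 and 65.2 (79.9-fold lower; log2 fold change -6.32, SE 0.35, adjusted p = 4.29e-05). The pair of calcium-binding proteins S100a8 and S100a9 fell as well, from 6884 and 8871 to 186 and 169 (-5.43) and from 7236 and 7892 to 288 and 318 (-4.62). Mmp9, a gelatinase, fell on both probe sets (-5.32 to -3.73). The member that rose was the lysozyme gene Lyz2 (1.66), which macrophages also express, while Csf3r, the receptor for granulocyte colony-stimulating factor, did not pass (0.51). The list summed to 55918 and 66939 in bone marrow and 20309.9 and 19127 in transplanted muscle, where Lyz2 alone was at 15881 and 14509.9.

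Genes of early and late B cell stages fell. Of 15 early B genes 9 fell and 1 rose (median -2.85). The 16 mature B and plasma cell genes gave 11 falls and 2 rises (median -4.47). Over all genes 19.5% fell and 12% rose. Fewer early B genes fell without any 1 of the 4 arrays. Their median was then -2.75 and -3.54 without bone marrow replicate 1 and 2, and -2.73 and -2.92 without transplanted replicate 1 and 2. Dntt, the terminal transferase that adds bases during receptor rearrangement, was at 4032 and 4104 in bone marrow and 2.17 and 2.99 in transplanted muscle, at least 96-fold lower (log2 fold change -9.27, SE 0.46, adjusted p = 2.99e-05). All 3 probe sets of Dntt fell (-9.27 to -3.84). For Cd79b, a signalling chain of the B cell receptor, the bone marrow arrays gave 3029.5 and 3161 and the transplanted arrays 76.7 and 40 (52-fold lower; log2 fold change -5.7, SE 0.48, adjusted p = 0.000187). Intensities of Foxo1, a factor of early B cells, were 791 and 709 in bone marrow against 95.3 and 109 after injury and transplantation (7.09-fold lower; log2 fold change -2.83, SE 0.30, adjusted p = 0.000484). The early member that rose was Bst1, a surface enzyme also found on myeloid cells, at 93.7 and 79.2 in bone marrow and 482 and 659.6 in transplanted muscle (2.65, 2 of 2 probe sets). Ms4a1, which encodes CD20, was at 3483 and 3929 in bone marrow and 35.7 and 8.88 in transplanted muscle, at least 87.3-fold lower (log2 fold change -7.35, SE 0.52, adjusted p = 0.000102). For Cr2, the complement receptor of B cells, the bone marrow arrays gave 701 and 662 and the transplanted arrays 4.79 and 6.81 (at least 16.2-fold lower; log2 fold change -6.13, SE 0.34, adjusted p = 4.32e-05). Intensities of Pou2af1, a coactivator of immunoglobulin genes, were 1651 and 1443 in bone marrow against 29.3 and 19.8 after injury and transplantation (at least 36.5-fold lower; log2 fold change -5.78, SE 0.35, adjusted p = 7.02e-05). Jchain, the joining chain of secreted IgA and IgM, was at 4052 and 3439 in bone marrow and 20 and 23.2 in transplanted muscle, at least 88.1-fold lower (log2 fold change -7.19, SE 0.34, adjusted p = 2.98e-05). Igha, the IgA heavy chain, fell on 3 of 3 probe sets (-7.69 to -6.74), and the kappa gene Igkv8-30 fell too (-5.89); probe sets of immunoglobulin genes may read related copies. Prdm1 and Cd72 rose (1.77 and 1.63), and leaving out any 1 of the 4 arrays left 1 rise. Summed intensity of the mature list was 23452 and 24057 against 5225 and 4950.2.

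T cell genes fell in 19 of 21 cases and rose in 0 (median -3.5), beside 19.5% and 12% of all genes. Their summed intensities were 9739 and 11912 in bone marrow and 896 and 939 in transplanted muscle. Cd2, an adhesion receptor of T cells, was at 1086 and 1054 in bone marrow and 85.9 and 91.8 in transplanted muscle, 11.6-fold lower (log2 fold change -3.53, SE 0.32, adjusted p = 0.000261). For Lat, the adaptor below the T cell receptor, the bone marrow arrays gave 487 and 986 and the transplanted arrays 62.6 and 36 (at least 13.1-fold lower; log2 fold change -3.75, SE 0.43, adjusted p = 0.000662). Intensities of Cd5, a brake on T cell receptor signals, were 205 and 255 in bone marrow against 27.8 and 15.4 after injury and transplantation (at least 5.49-fold lower; log2 fold change -3.23, SE 0.39, adjusted p = 0.000845). On the transplanted arrays 9 of 21 members were under 38.4 on both. The 2 that did not pass on their brighter probe set were Zap70 (-0.89), a kinase, and Icos (-1.85), a costimulatory receptor. The other probe set of each was called lower (-2.0 and -2.73), and with a gene's probe sets averaged 21 of 21 fell. Fewer than 19 fell without any 1 of the 4 arrays. The median was then -3.58 and -3.39 without bone marrow replicate 1 and 2, and -3.58 and -3.25 without transplanted replicate 1 and 2.

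Natural killer and cytotoxic genes were mixed, with 10 of 19 falling and 4 rising, beside 19.5% and 12% of all genes. Fewer fell and fewer rose without any 1 of the 4 arrays. The median log2 fold change, -1.62, was then -1.78 and -1.41 without bone marrow replicate 1 and 2. It was -1.70 and -1.55 without transplanted replicate 1 and 2. Ifng, interferon gamma, was at 1063 and 1345 in bone marrow and 51.7 and 57 in transplanted muscle, 20.6-fold lower (log2 fold change -4.36, SE 0.41, adjusted p = 0.000304). For Nkg7, a granule membrane protein, the bone marrow arrays gave 1533 and 2139 and the transplanted arrays 232 and 239.8 (7.56-fold lower; log2 fold change -2.92, SE 0.32, adjusted p = 0.000541). Intensities of Gzmb, granzyme B, were 193 and 194 in bone marrow against 1392 and 1246 after injury and transplantation (6.69-fold higher; log2 fold change 2.74, SE 0.30, adjusted p = 0.000536). Gzma, granzyme A, was at 505 and 832 in bone marrow and 1660.3 and 1659 in transplanted muscle and rose (log2 fold change 1.35, SE 0.37, adjusted p = 0.0265). In untransplanted injured muscle Gzmb was at 138 and 114 and Gzma at 85.1 and 73.8, and both were higher with transplantation (log2 difference 3.35, SE 0.30, adjusted p = 0.0123 for Gzmb and 4.32 for Gzma). The pore-forming protein Prf1 rose over bone marrow (1.86), while the lineage factors Eomes (-2.14) and Tbx21 (-3.01) fell; these and Gzma were named with their values known. For Prf1 and Eomes this holds for 1 of 2 probe sets, and the others, at 0.38 and 0.62, did not pass.

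Of 23 genes of MHC class II and dendritic cells 4 rose and 5 fell (median -0.43), beside 12% and 19.5% of all genes. Without transplanted replicate 2 there was 1 rise, and with either transplanted array left out there were 3 falls. H2-Eb1, a class II beta chain, was at 5545 and 7720.4 in bone marrow and 1998 and 1599.8 in transplanted muscle, 3.65-fold lower (log2 fold change -1.87, SE 0.23, adjusted p = 0.000854). In untransplanted injured muscle H2-Eb1 was at 9782 and 8611, above all 4 arrays compared here (log2 difference -2.36, SE 0.23, adjusted p = 0.0151 for transplanted minus untransplanted). For Irf8, a factor of dendritic cells and B cells, the bone marrow arrays gave 6279.8 and 6537 and the transplanted arrays 1004 and 1356 (5.47-fold lower; log2 fold change -2.45, SE 0.35, adjusted p = 0.00169). Irf8 was called on 1 of 2 probe sets. Intensities of Cd86, a costimulatory ligand, were 193 and 176 in bone marrow against 553 and 559 after injury and transplantation (2.97-fold higher; log2 fold change 1.57, SE 0.29, adjusted p = 0.005). Ccr6, a chemokine receptor of dendritic and B cells, was at 295 and 675 in bone marrow and 43.1 and 30.3 in transplanted muscle, at least 10.1-fold lower (log2 fold change -3.49, SE 0.51, adjusted p = 0.00191). Cd74, the class II chaperone (-0.47), and H2-Aa, a class II alpha chain (-0.08), did not pass.

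Smaller blood lineages were lower or mixed, beside 12% of all genes higher and 19.5% lower. Of 9 erythroid genes 3 fell and 0 rose, and 5 fell without transplanted replicate 2. Nfe2, a factor of erythroid and megakaryocytic cells, was at 479 and 366 in bone marrow and 4.88 and 12.5 in transplanted muscle, at least 9.97-fold lower (log2 fold change -5.12, SE 0.45, adjusted p = 0.00023). For Car2, carbonic anhydrase 2, the bone marrow arrays gave 1126 and 644 and the transplanted arrays 130.3 and 149.9 (5.95-fold lower; log2 fold change -2.57, SE 0.41, adjusted p = 0.00274). Gata1, the erythroid master factor, was at 44.9 and 77.8 in bone marrow and 9.31 and 33.9 in transplanted muscle and did not pass (-1.49). Of 11 megakaryocyte and platelet genes 3 rose and 1 fell. Intensities of Pf4, platelet factor 4, which macrophages also make, were 295 and 657 in bone marrow against 9385 and 7767 after injury and transplantation (19.2-fold higher; log2 fold change 4.26, SE 0.36, adjusted p = 0.000203). Ppbp, a platelet chemokine, rose (2.35), F2r, a thrombin receptor, fell (-4.41), and the platelet integrin Itga2b (-1.29) did not pass. Of 14 mast cell, basophil and eosinophil genes 8 fell and 1 rose, the latter Cma1, a mast cell chymase. That rise was lost without any 1 member array, and 5 fell without bone marrow replicate 2. Mcpt8, a basophil protease, was at 418 and 528 in bone marrow and 5.36 and 6.8 in transplanted muscle, at least 11.2-fold lower (log2 fold change -5.56, SE 0.44, adjusted p = 0.000156). For Prg2, the major basic protein of eosinophils, the bone marrow arrays gave 159 and 838 and the transplanted arrays 4.13 and 10.1 (at least 8.72-fold lower; log2 fold change -5.11, SE 0.74, adjusted p = 0.00182). Hdc, which makes histamine, fell on 1 of 2 probe sets (-2.97).

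Cell division genes fell together. Of 24 mitosis genes 19 fell and 0 rose (median -1.49), and of 27 DNA replication genes 17 fell and 0 rose (median -1.78). Over all genes 19.5% fell and 12% rose. Fewer members of both lists fell without any 1 of the 4 arrays, as did fewer of all probe sets. The mitosis median was then -1.46 and -1.82 without bone marrow replicate 1 and 2, and -1.59 both times without a transplanted array. The replication median was -1.56 and -1.71 without bone marrow replicate 1 and 2, and -1.96 and -1.58 without transplanted replicate 1 and 2. Cdc20, an activator of the anaphase-promoting complex, was at 742 and 643 in bone marrow and 104 and 131 in transplanted muscle, 5.76-fold lower (log2 fold change -2.53, SE 0.30, adjusted p = 0.000751). For Top2a, the topoisomerase of dividing cells, the bone marrow arrays gave 1155 and 1371 and the transplanted arrays 231 and 221 (5.49-fold lower; log2 fold change -2.46, SE 0.31, adjusted p = 0.00101). Intensities of Prc1, a spindle midzone protein, were 376 and 409 in bone marrow against 61.6 and 73.7 after injury and transplantation (5.54-fold lower; log2 fold change -2.47, SE 0.32, adjusted p = 0.00114). Both probe sets of Cdc20 and of Prc1 fell. Cenpa, the centromeric histone, was at 469 and 557 in bone marrow and 110.3 and 138 in transplanted muscle, 4.05-fold lower (log2 fold change -2.02, SE 0.31, adjusted p = 0.00254). For Mcm10, a replication initiation factor, the bone marrow arrays gave 247 and 289 and the transplanted arrays 35.3 and 59.6 (at least 5.22-fold lower; log2 fold change -2.44, SE 0.39, adjusted p = 0.003). Intensities of Ung, the uracil DNA glycosylase, were 622 and 345 in bone marrow against 31.1 and 14.7 after injury and transplantation (at least 11-fold lower; log2 fold change -4.19, SE 0.45, adjusted p = 0.00051). Mcm7, a subunit of the replicative helicase, fell on 3 of 4 probe sets (-2.14 to -0.88). Pcna, the polymerase clamp, did not pass (0.4, adjusted p = 0.284).

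E2F factors are known to control replication genes through sites such as TTTCCCGC and TTTGGCGC. Either form, on either strand, was present in 1.30% of all 32851 windows and in 5 of the 22 tested replication members with a window, of which 2 were called among 15 called with a window. These 2 are Cdc6, a licensing factor that fell by 2.47 on the log2 scale, and Mcm7. Members were again counted over all their windows, unlike the share of single windows. Capitals mark the match, here the reverse complement of the first form.
Cdc6, chr11:98907988-98908045, plus strand: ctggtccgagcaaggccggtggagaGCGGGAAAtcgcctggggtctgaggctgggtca
Mcm7, chr5:138172016-138172073, minus strand: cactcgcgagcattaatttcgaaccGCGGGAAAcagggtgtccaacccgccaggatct
The other 3 were Mcm5 (-1.13), Mcm6 (-0.22) and Pola1 (-1.47), which did not pass on their brightest probe set. The second probe set of Mcm6 was called lower (-2.42).

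**Figure D4:**
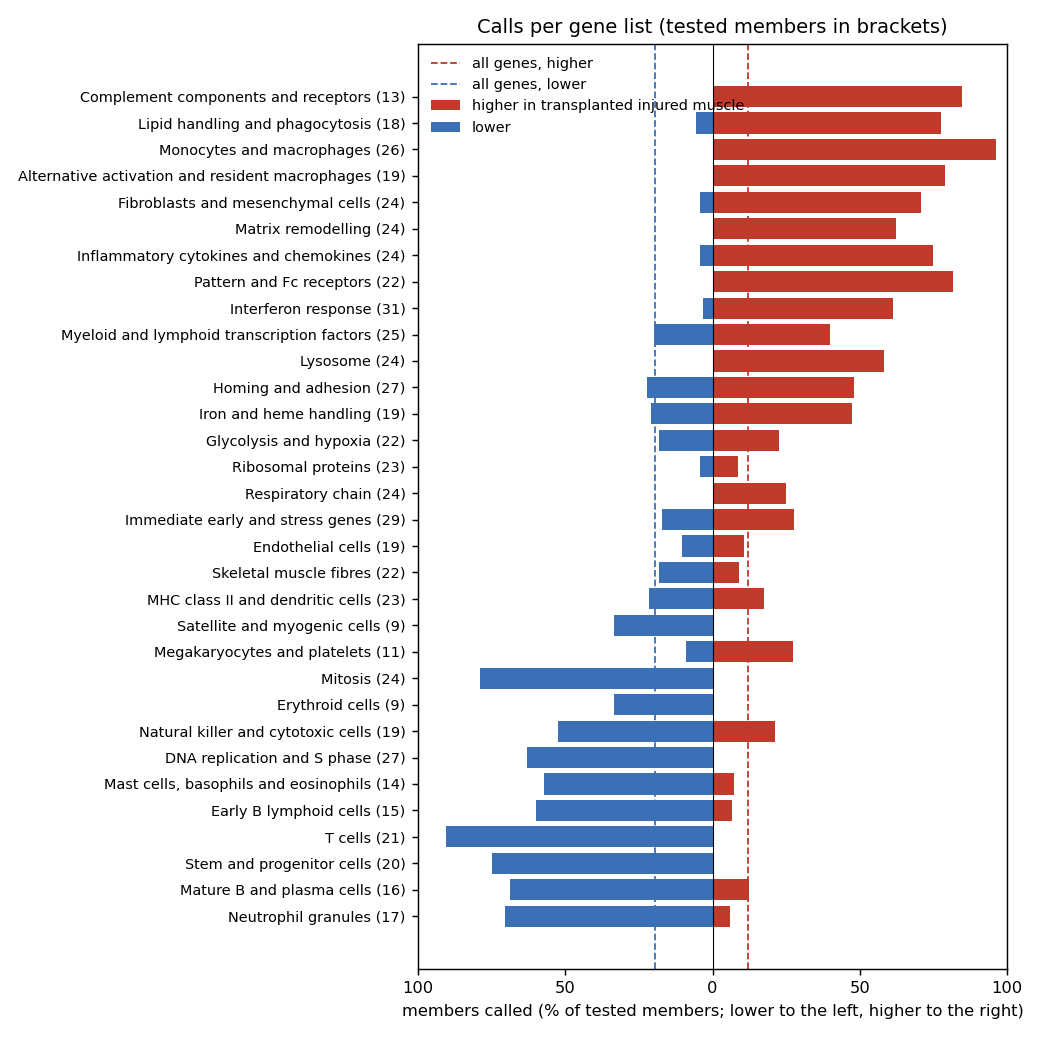
Share of tested members of each of the 32 gene lists called higher (red, to the right) or lower (blue, to the left) in transplanted injured muscle than in bone marrow, in percent, ordered by median log2 fold change with the number tested in brackets. Dashed lines mark the shares over all genes, 12% higher and 19.5% lower; the macrophage list reaches 25 of 26 higher and the T cell list 19 of 21 lower.

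Lists of general cell functions come last, and their counts stand beside 12% of all genes higher and 19.5% lower. Of 23 ribosomal proteins 2 rose and 1 fell (median 0.17), but with quantile or cyclic loess normalization 1 rose and 7 fell, and with median centring 5 rose. Rpl11 rose (1.08), Rps6 fell (-2.16), and Rplp0 did not pass (0.52), with a sign that turned under those 2 normalizations. Of 24 respiratory chain genes 6 rose and 0 fell (median 0.14). With quantile or cyclic loess normalization 2 rose and 1 fell. With a gene's probe sets averaged 3 rose, and without the intensity trend 2 rose. Fewer respiratory chain genes rose without any 1 of the 4 arrays. Their median was then 0.36 and 0.35 without bone marrow replicate 1 and 2, and 0.21 and 0.19 without transplanted replicate 1 and 2. Sdhb, a subunit of succinate dehydrogenase, was at 1803 and 1424 in bone marrow and 3918 and 4519 in transplanted muscle (log2 fold change 1.39, SE 0.25, adjusted p = 0.00459). Cox5b and Ndufv2 had probe sets called both ways. Of 22 genes of glycolysis and hypoxia 5 rose and 4 fell. Ddit4, an inhibitor of the mTOR kinase, fell from 706 and 1157 to 71.3 and 75.1 (log2 fold change -3.56, SE 0.38, adjusted p = 0.000501), and the triosephosphate isomerase Tpi1 rose on 2 of 3 probe sets (1.44). The rises numbered 4 and 3 without bone marrow replicate 1 and 2, and 1 and 3 without transplanted replicate 1 and 2, and the falls 4 and 2 without bone marrow replicate 1 and 2, and 2 and 2 without transplanted replicate 1 and 2. With a gene's probe sets averaged, 9 rose and 2 fell. Of 29 immediate early and stress genes 8 rose and 5 fell (median -0.21). Under quantile or cyclic loess normalization 8 rose and 7 fell. Averaging a gene's probe sets gave 10 rises and 3 falls in this list, with a median of 1.02. Ier3, an early response gene, was at 803 and 1082 in bone marrow and 6778 and 6696 in transplanted muscle (log2 fold change 2.85, SE 0.23, adjusted p = 0.000158), and the stress factor Atf3 rose (1.78), whereas the chaperone Dnajb1 fell on 1 of 2 probe sets (-1.73). Without transplanted replicate 2 the rises numbered 5 and the falls 3, and without transplanted replicate 1 the falls numbered 2.

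The injured muscle of untransplanted mice was set beside these results. Between the injured groups 41 of 16289 probe sets differed (0.252%), or 30 of 9513 genes (0.315%), and leaving out 1 transplanted array gave 0. At an unadjusted p of 0.05 in limma, 1067 and 1009 probe sets passed without transplanted replicate 1 and 2. Ccl2 was at 8395 and 8438 and Ccl7 at 6158 and 5921 in untransplanted injured muscle, and neither difference passed (log2 difference 0.21 and 0.76). The same held for C3ar1 (0.81), Lgals3 (0.28), Ngp (-0.12) and Ms4a1 (0.2). A p that misses the threshold does not show that levels were alike. In the mitosis list the untransplanted injured arrays lay between the other groups for Cdc20, at 315 and 317 (log2 difference -1.41, adjusted p = 0.131), and for Top2a, at 717 and 774 (-1.71, adjusted p = 0.0796). Both comparisons share the transplanted arrays.

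**Figure D5:**
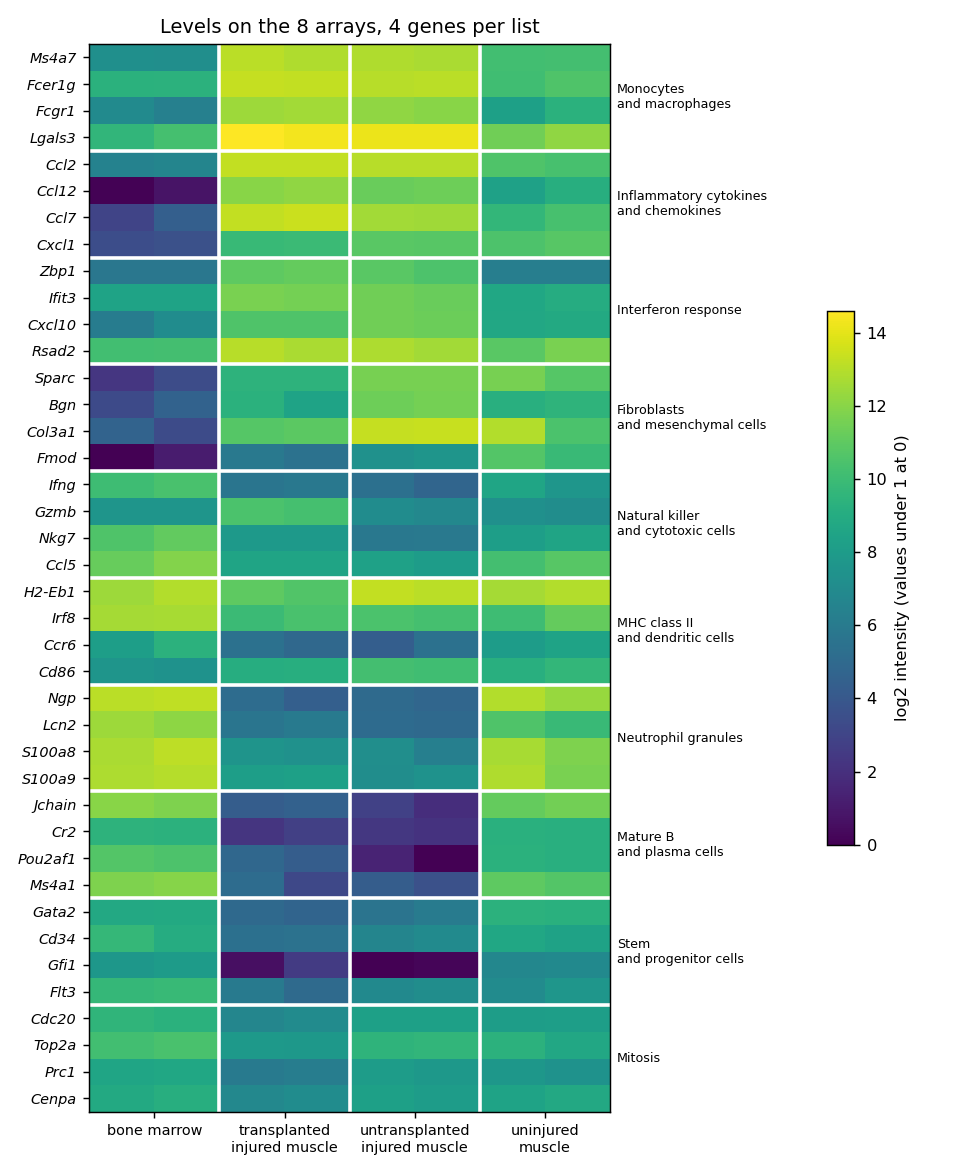
Log2 intensity on the 8 arrays (columns, 2 per group) of 4 genes from each of 10 lists (rows), chosen as the members with the smallest p in the comparison with bone marrow. Transplanted injured muscle is brighter than bone marrow for macrophage, chemokine and interferon genes and darker for neutrophil granule, B cell, progenitor and mitosis genes.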

How the data were processed

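RNA of sorted cells was measured on 8 Affymetrix Mouse430A arrays, 1 per sample, in 4 groups of 2. Biotin labelling was done in a one-cycle reaction from 1 µg of RNA, per the labels' protocols. The deposited values are linear intensities, 1 per probe set, which the authors had scaled (the mean of each array without its lowest and highest 2% of values is about 250 in the file). The submitters' processing notes name GCOS with no version, and how probes were summarised is not given in the sources used here.

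From these, 64 control probe sets were set aside, leaving 22626. Intensities were floored at 1 and transformed as log2(value + 4.02), where 4.02 is the 10th percentile of the intensities, so fold changes of dim genes are understated. Probe sets at or above 38.4 (the 40th percentile) on at least 2 arrays were tested, which left 16289. Groups were compared in limma 3.58.1 (R 4.3.3) with 1 mean per group on all 8 arrays and an intensity trend; tests were two-sided and adjusted by Benjamini-Hochberg over tested probe sets, at 0.05. The fit had 4 residual degrees of freedom and log2 fold changes had a median SE of 0.45; precision is limited by the number of arrays. The fit was also run on simulated data, whose outcome is not given here and on which no result rests. A fold reads "at least" where an array of the lower group lay under 38.4, and is then computed with such values set to 38.4.

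Of the probe sets, 20380 have 1 gene in the platform annotation, 691 several and 1555 none, and those with several or none were not named. Named genes were the 12 largest rises and falls among genes with 2 or more probe sets called the same way on all, with groups apart and the higher mean at or above 64.2 (the median), ranked by the median over the gene's probe sets of the log2 fold change with values under 38.4 set to it; the 8 largest by the same measure among genes with 1 probe set; the 4 members with the smallest p in each of 32 lists (717 genes, 620 tested); and Ptprc. The comparison, its lists and the named-gene rule were chosen with earlier results of these data known. Same-numbered replicates of the groups compared did not deviate together (correlation -0.02 between bone marrow and transplanted arrays), so the numbers were not taken as pairs. Bone marrow and uninjured muscle, both in the fit, gave 0.31, and the remaining pairs of groups lay from -0.03 to 0.003. Promoter windows are RefSeq's, on GRCm38.p6. The alternatives were other normalizations, pseudocounts, filters, array weights, no trend, a fit on the 4 arrays alone, a replicate block and leaving out each member array.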

Additional observations from a re-analysis of the deposited data

Results flagged for a closer look

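Levels in transplanted and untransplanted injured muscle differed in limma for 15 of the 620 tested members of the lists, against 0.315% of all genes. The brightest probe set stands for a gene in both. The lists were chosen with earlier results of these data known, so no conclusion is drawn from setting these shares side by side. Each log2 difference is given as transplanted minus untransplanted. Of 19 natural killer and cytotoxic genes 2 differed, both higher after transplantation. Gzma was at 1660.3 and 1659 against 85.1 and 73.8 (4.32, adjusted p = 0.0123), and Gzmb at 1392 and 1246 against 138 and 114 (3.35). Rgs1, the brake on chemokine receptor signalling, was higher by 1.45.

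Lower after transplantation were 3 mast cell proteases, Mcpt4 at 6.85 and 8.24 against 551 and 411 (-5.38), Cma1 at 92 and 67.1 against 1428 and 1333 (-4.07) and Cpa3 at 53.8 and 55.5 against 882 and 766 (-3.82). Cma1 was nonetheless above bone marrow, where it was at 36.7 and 40.2. Of 24 fibroblast genes 2 differed on their brightest probe set, Postn, the matrix protein periostin (-3.77), and Serpinf1, a secreted serpin (-2.42). Of 24 matrix genes 1 differed, Fn1, fibronectin (-1.95), and all 3 were lower. On probe sets other than the brightest, Bgn (-2.22 and -2.15) and Sparc (-2.24) of the fibroblast list were called lower as well. The same direction was found for the coagulation factor F13a1 (-1.90), the class II chains H2-Eb1 (-2.36) and H2-Aa (-1.75), and the muscle fibre genes Tnnc2 (-3.37), Myl1 (-3.24) and Mylpf (-2.53). H2-Aa was at 5559 and 6003 in bone marrow, 5713 and 5202 in transplanted and 17131 and 19782 in untransplanted injured muscle. Leaving out either transplanted array left 0 of these calls (1067 and 1009 probe sets passed an unadjusted p of 0.05 in limma without replicate 1 and 2).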

How the results depend on the processing

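Without 1 member array, 1257 to 1884 probe sets rose over bone marrow and 1332 to 1700 fell, and genes with all probe sets in accord numbered 96 to 151 higher and 74 to 94 lower. Under the other settings these 4 counts stayed within 1.5 times of the values reported. The difference between the injured groups was far less stable: against the 41 probe sets reported, 0 to 8 were called without 1 member array, 811 with array weights, 86 with the pseudocount at the median, 24 with median centring, 9 with quantile normalization and 15 with a replicate block; the cause was not tested. With the replicate block, which does not rest on paired samples, 2478 probe sets rose and 2884 fell, with 223 and 190 genes in full accord. The median of all probe sets, -0.19, was -0.03 with cyclic loess, -0.08 with median centring and -0.11 with quantile normalization. Of 143 named genes 139 were called, and signs turned for 4: Cox6c (-0.0371) and Ndufv2 (-0.208) with a gene's probe sets averaged, Ptprc with cyclic loess (-0.337), quantile normalization (-0.422) and without 1 array (-0.0412 to 0.311), and Rplp0 with cyclic loess (-0.0253) and quantile normalization (-0.0817). Averaging probe sets gives no count of probe sets, and a fit on the 4 arrays alone none for the injured groups. With 2 arrays a group, the median SE of 0.45 limits what small changes can be called.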
